A study of Mus musculus with 11 samples.

Results

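Endogenous small interfering RNAs (endo-siRNAs) that recurred in mouse sperm beyond a single library were examined across 11 small RNA libraries. They were chosen from the 712 endo-siRNAs in the authors' table of 2304 listed features, which also held 1592 mature miRNAs. An entry was a member if it had 1 or more raw reads in any of the 6 sperm libraries other than wild-type (WT) sperm replicate 1, and 5 named entries (endo-siRNA-Sp527, Sp521, Sp520, Sp532 and Sp40) were left out. This gave 258 members. The reads of those 6 libraries chose the members, so every sperm value below is a description of how the chosen entries were distributed. The libraries that the choice did not read were WT sperm replicate 1, the oocyte library and the 3 libraries of 2PN (pronuclear) embryos.

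Sperm came from the cauda epididymis of adult mice on the C57BL/6 background: WT males (2 libraries), males that lacked Dicer in the germline through conditional knockout (cKO; 2 libraries) and males with a Drosha cKO made likewise (3 libraries). Both knockouts were made with Cre and loxP; the labels name neither the Cre line nor its promoter. Oocytes came from superovulated WT females (1 library), and 2PN embryos were made by injecting WT, Dicer cKO or Drosha cKO sperm (1 library each). The oocytes used for injection are not described further in the labels. Whether the libraries of 1 group came from separate animals is not labelled, so spreads and tests cover the difference between these samples, which may be technical. The assay reads small RNAs alone, and neither knockout could be checked on its target transcript.

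Endo-siRNAs are cut by Dicer from long double-stranded RNA, such as hairpins of inverted repeats or pairs of sense and antisense transcripts, and are loaded into Argonaute proteins. Unlike canonical miRNAs they do not need Drosha, which releases miRNA hairpins from primary transcripts in the nucleus. In mice they are best known from growing oocytes, where many derive from pseudogenes and transposons, and they have also been described in spermatogenic cells. The deposited tables name each entry by a serial number only ("Sp" or "T" and a number), and its sequence, locus and targets are not analysed here.

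Listed reads numbered 12003 to 278890 in the sperm libraries and 2951 to 8967 in the oocyte and 2PN libraries. Levels are given in RPM, the read count scaled by a library divisor of the authors; in sperm this divisor ran from 412523 to 3743577. In sperm, 1 read equalled 0.267 to 2.42 RPM, and a floor of 3 reads equalled 0.801 to 7.27 RPM. WT replicate 1 had 2.16% of its divisor in listed reads and WT replicate 2 had 10.1%, so the same endo-siRNA read count is a different share of listed reads in the 2 libraries. The labelled sperm carried male germ cell miRNAs: all 7 of a fixed list (miR-34b-5p, miR-34c-5p, miR-449a-5p, miR-743a-3p, miR-880-3p, miR-741-3p and miR-184-3p) had reads in each sperm library. Their summed share of listed reads was 15.7% to 17.2% in WT, 0.772% to 0.824% for Dicer cKO and 1.41% to 2.32% for Drosha cKO sperm. Over the same libraries the 6 epithelial miRNAs (miR-200a-3p, miR-200b-3p, miR-200c-3p, miR-141-3p, miR-429-3p and miR-10a-5p) summed to 2.43% to 2.61%, 20.6% to 22.0% and 14.5% to 19.3%, and the 7 blood cell miRNAs (miR-451a, miR-144-3p, miR-142-3p, miR-142-5p, miR-150-5p, miR-223-3p and miR-155-5p) to 0.513% to 0.525%, 5.02% to 5.05% and 2.16% to 2.47%. All 7 germ cell miRNAs were called lower and all 6 epithelial miRNAs higher in each cKO against WT, and 4 of the 7 blood cell miRNAs were called higher in each, with 1 lower in Drosha cKO, by the edgeR test described below. These lists thus moved with genotype, and their part in the endo-siRNA values was not tested. In bulk RNA, fewer cells of a type and less RNA per cell cannot be told apart.

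Recurrence was thin. Of the 258 members, 141 (54.7%) had reads in just 1 of the 6 libraries, 59 in 2, 23 in 3, 25 in 4, 4 in 5 and 6 in all 6. The median member had 2 reads over the 6 libraries together. At the edge of the rule, 87 members entered on a single read, while 39 members had at least 10 reads and 4 had at least 50. With at least 2 reads asked of a library, 150 members had any such library and 53 had 2 or more, against 117 with 2 or more at 1 read. Most members therefore stood near the limit of detection, where presence or absence in a library cannot be told apart from counting error.

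**Figure D1:**
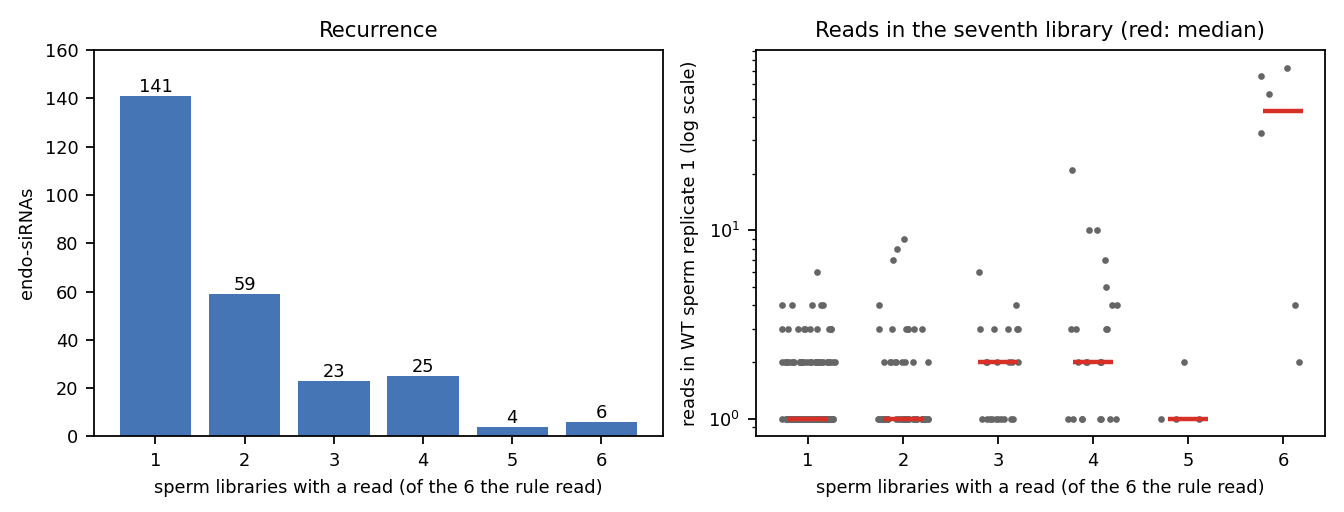
Left, number of endo-siRNAs by how many of the 6 sperm libraries read by the rule held a read (141 in 1 library, 6 in all 6). Right, raw reads of the same 258 entries in WT sperm replicate 1 on a log scale, each point 1 entry with small horizontal scatter and red bars for the median; the 6 entries found in all 6 libraries have a median of 43 reads there.

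WT sperm replicate 1 was not read by the rule, but it was not a neutral library either, since each of the 711 "Sp" entries in the table had at least 1 read in it. There 107 of the 258 members (41.5%) had 2 or more reads, against 89 of the 448 "Sp" entries with no read in the other 6 libraries (19.9%). The means were 2.70 and 1.30 reads, and the median was 1 read in both sets. The highest values were 73 reads for Sp218 among members and 9 reads for Sp511 among the others. Next to the threshold the sets were closer by mean: members that entered on a single read had a mean of 1.56 reads in WT replicate 1. By share these members stood nearer to all members, with 34.5% at 2 or more reads. By recurrence, 35.5% and 33.9% of members found in 1 and 2 of the 6 libraries had 2 or more reads in it, then 56.5% and 68.0% of those found in 3 and 4, and 1 of the 4 found in 5. The 6 found in all 6 libraries had a median of 43 reads there, against medians of 1 or 2 in every other class.

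The number of members with a read was 258 and 156 in WT sperm, 72 and 58 for Dicer cKO sperm, and 134, 19 and 45 for Drosha cKO sperm. The first of these is fixed by the table, and the lowest pair belongs to the 2 Drosha cKO libraries with the smallest divisors. When each library was thinned to the smallest sperm divisor, by the exact expectation and assuming that the divisor counts reads, the expected numbers were 54.1 and 53.0 in WT, 25.7 and 25.4 for Dicer cKO, and 37.1, 19.0 and 29.8 for Drosha cKO sperm. On that scale both WT libraries stood above all 5 cKO libraries. The place of WT replicate 1 in this order is not free of the listing, since every member had a read in it. The order did not hold when libraries were thinned to an equal number of listed reads, where WT replicate 2 (6.55) stood below both Drosha cKO replicates 1 and 3 (13.3 and 13.9) and WT replicate 1 stood at 21.6. The scales differ most for WT replicate 2, which had the largest share of its divisor in listed reads.

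**Figure D2:**
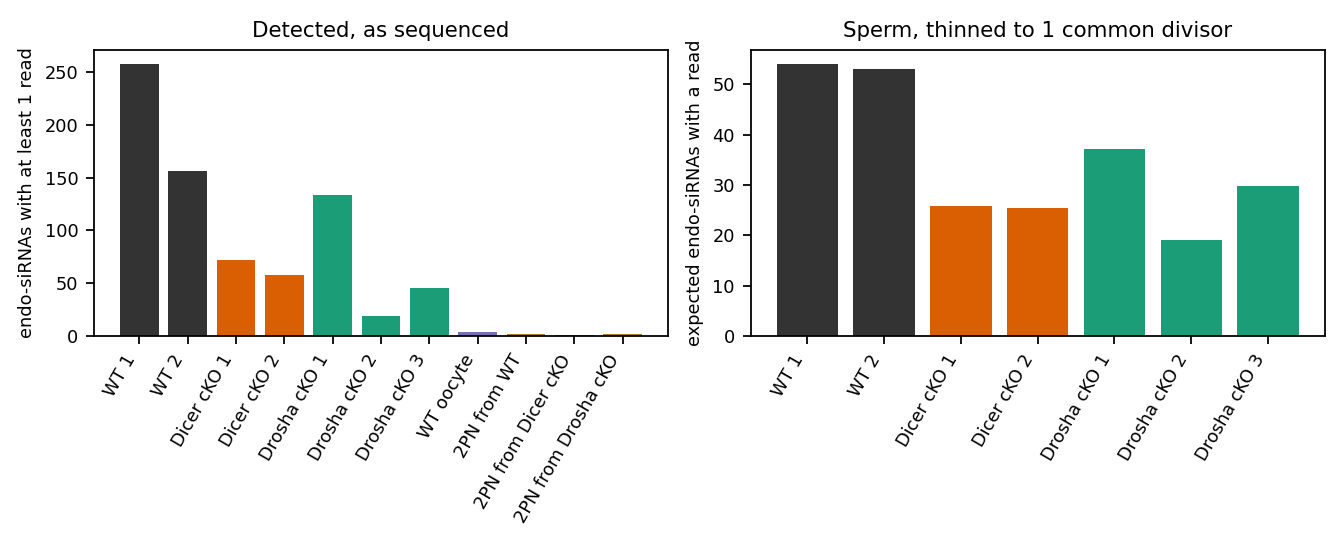
Left, number of the 258 endo-siRNAs with at least 1 read in each of the 11 libraries as sequenced. Right, number expected in each sperm library when thinned to the smallest sperm divisor, where the 2 WT libraries stand at 54.1 and 53.0 and the cKO libraries between 19.0 and 37.1. Bars are single libraries, coloured by group, with no error bars.

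By genotype, 43 members had reads in WT replicate 2, in Dicer cKO and in Drosha cKO sperm, and these held 1518 of the 2254 reads of the 6 libraries. Another 65 members were seen in WT replicate 2 and in no cKO library (139 reads, 33 of the members on 1 read). Drosha cKO replicate 1 alone held 41 further members, and Dicer cKO replicates 1 and 2 alone held 13 and 12. In all, 193 members had a read in at least 1 cKO library, 102 of them in Dicer cKO and 157 in Drosha cKO sperm. Members with reads in WT replicate 2 and Drosha cKO but none in Dicer cKO numbered 37 (294 reads), and those in WT replicate 2 and Dicer cKO but not Drosha cKO numbered 11 (32 reads). These counts set 3 Drosha cKO libraries against 2 Dicer cKO libraries and are not matched for depth. Drosha cKO replicate 1, with the largest sperm divisor, held 134 of the 157 by itself. The same overlaps were not counted over all features, so no difference between the genotypes is read from them. Replicates shared few entries: 28 members were in both Dicer cKO libraries, which was 38.9% of those in replicate 1 and 48.3% of those in replicate 2, and 8 were in all 3 Drosha cKO libraries. Across all 258 members the Pearson correlation of log2(RPM + 1) was 0.46 for the WT pair, 0.77 for the Dicer cKO pair and from 0.51 to 0.56 for pairs of Drosha cKO libraries, as a description of sparse counts.

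Summed over members, the level was 205 and 264 RPM in WT sperm (234.1 ± 41.5, SD, n = 2). It was 155 and 167 RPM for Dicer cKO sperm (161.0 ± 7.92, SD, n = 2), and 178, 112 and 160 RPM for Drosha cKO sperm (150.0 ± 34.5, SD, n = 3). Both WT libraries were above all cKO libraries, and the Dicer cKO values lay within the Drosha cKO range. No test is given, because the same libraries, WT replicate 1 apart, chose the members. Every member had a read in WT replicate 1, and 151 of the 258 had just 1 there (0.294 RPM each). The sum of that library may thus be raised by how the table was listed, which was not tested. As a share of listed reads the order was lost: the sums were 9499 and 2621 CPM (counts scaled to the listed reads alone) in WT, 3513 and 2377 for Dicer cKO, and 6608, 3832 and 7600 for Drosha cKO sperm.

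**Figure D3:**
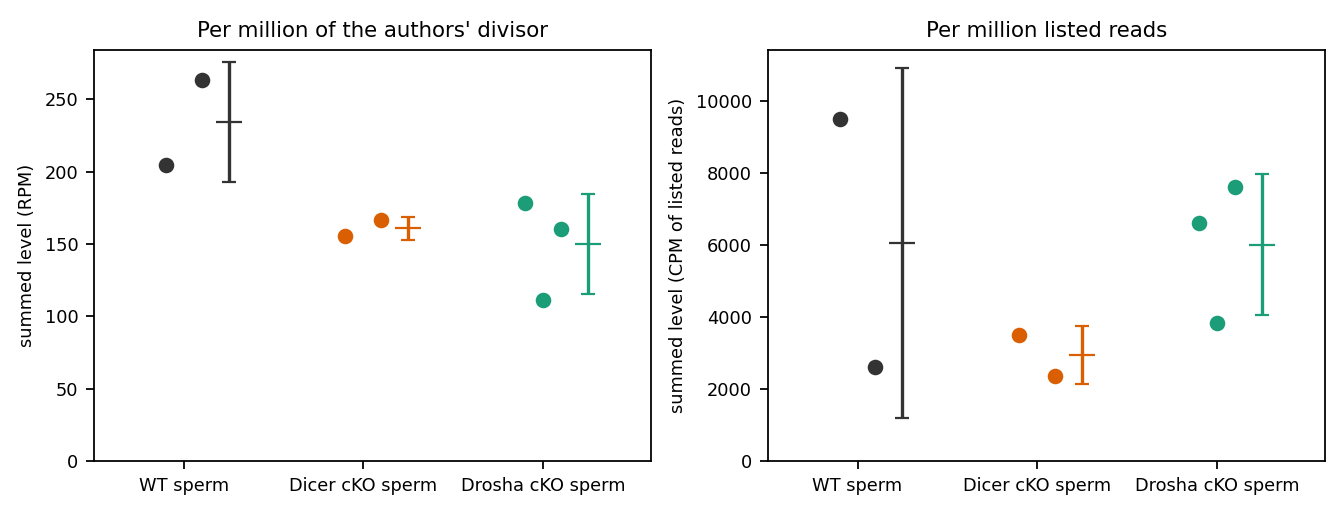
Summed level of the 258 endo-siRNAs in each sperm library (points), with the group mean and SD beside them (bars), scaled to the authors' divisor (left, RPM) and to listed reads (right, CPM). On the left the WT libraries (205 and 264 RPM) lie above the cKO libraries; on the right WT replicates 1 and 2 (9499 and 2621) enclose 4 of the 5 cKO values.

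A few entries carried much of this sum. The 4 members with most reads, Sp459, Sp392, Sp556 and Sp218, held 43.6% of reads over the 6 libraries, and Sp459 alone 19.4%. Their joint share of member reads was 27.8% and 33.2% in WT, 50.5% and 55.3% for Dicer cKO, and 43.6%, 60.9% and 50.4% for Drosha cKO sperm. Without these 4, chosen after their values were seen, the other 254 members summed to 148 and 176 RPM in WT, 77.0 and 74.6 RPM for Dicer cKO, and 100.4, 43.6 and 79.6 RPM for Drosha cKO sperm. Scaled to listed reads these 254 gave 6855 and 1750 CPM in WT, 1740 and 1063 CPM for Dicer cKO, and 3725, 1500 and 3769 CPM for Drosha cKO sperm. Both WT libraries thus stood above all Drosha cKO libraries on the RPM scale only, and each of the 254 had a read in WT replicate 1 as listed. Members made up 36.5% and 48.3% of all endo-siRNA reads in WT, 22.0% and 20.4% for Dicer cKO, and 12.3%, 9.87% and 15.5% for Drosha cKO sperm. These shares depend on the left-out entries too, which count among all endo-siRNA reads and held 4777 of the 5444 in Drosha cKO replicate 1. The left-out entries, led by Sp527, summed to 185 and 282 RPM in WT, 551 and 649 RPM in Dicer cKO, and 1276, 1018 and 876 RPM for Drosha cKO sperm.

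Of the 258 members, 9 passed the low-count filter of edgeR, which was fitted to the counts of all 7 sperm libraries and all features (335 tested): Sp459, Sp392, Sp556, Sp218, Sp275, Sp16, Sp453, Sp105 and Sp390. Log2 changes below are from this fit, with TMM scaling, and a feature was called at a Benjamini-Hochberg adjusted p under 0.05. In Dicer cKO against WT sperm 47.2% of tested features were called, and 3 of the 9 members were, 1 higher and 2 lower (16.1% and 31.0% of tested features). In Drosha cKO against WT sperm 55.2% were called, and 1 of the 9 members, higher (22.1% of tested features). Both comparisons share the 2 WT libraries. In Dicer cKO against Drosha cKO sperm edgeR called 0.0% of features and 0 of the 9 members, while 65 features and 3 members had an unadjusted p under 0.05 and DESeq2 and limma called 16 and 2 features, with 0 and 1 members among them. Since the rule read these libraries, nothing is drawn from the counts. Median log2 changes of the 9 were −1.67, −0.71 and −0.86 in the 3 comparisons, beside 0.03, 0.05 and 0.01 over all tested features. The sign of these medians depended on the setting, over the members each setting tested. The median of all tested features, given in brackets, moved as well. For Dicer cKO against WT the member median was 0.98 (0.88) on the authors' divisor and 0.37 (0.36) with only the 2 groups compared. Without WT replicate 1 it was 0.79 (−0.05), and for Drosha cKO against WT 0.12 (−0.22). For Dicer cKO against Drosha cKO it was 0.46 (0.94) on the divisor and 0.16 (0.90) with limma, below all features in both. With replicate number as a block it was 0.33 (−0.02).

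Sp459, the most abundant member, had 66 and 86 reads in WT, 135 and 78 for Dicer cKO, and 113, 7 and 18 for Drosha cKO sperm. These were 19.4 and 31.0, 48.6 and 50.6, and 30.2, 17.0 and 23.9 RPM. Group means were 25.2 ± 8.21 RPM in WT (SD, n = 2), 49.6 ± 1.42 in Dicer cKO (n = 2) and 23.7 ± 6.61 in Drosha cKO sperm (n = 3). On the RPM scale both Dicer cKO libraries stood above all others, and WT and Drosha cKO libraries overlapped. After TMM scaling the log2 changes were near 0, at 0.10 (SE 0.63) for Dicer cKO and −0.07 (SE 0.59) for Drosha cKO against WT. The value for Dicer cKO depended on the scale: it was −0.07 with DESeq2 size factors and 0.98 on the authors' divisor, which also moved the median of all tested features to 0.88. Among 320 features with at least 10 reads in 2 sperm libraries, those whose log2(RPM + 1) over the 7 libraries was most like that of Sp459 were miR-199b-5p (Pearson r = 0.99), miR-196b-5p, miR-24-3p and miR-664-3p (each 0.95). The libraries share depth and genotype, so this likeness is a description.

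Sp392 had 53 and 135 reads in WT, 35 and 33 for Dicer cKO, and 125, 13 and 12 for Drosha cKO sperm, or 15.6 and 48.7, 12.6 and 21.4, and 33.4, 31.5 and 15.9 RPM. Group means were 32.1 ± 23.4 RPM in WT (SD, n = 2), 17.0 ± 6.23 in Dicer cKO (n = 2) and 26.9 ± 9.60 in Drosha cKO (n = 3). WT replicate 2 was the highest library, and WT replicate 1 lay between the 2 Dicer cKO values. The log2 change in Dicer cKO was −1.67 (SE 0.64), past the threshold and lower. The call ended when WT replicate 1 (−1.81) or either Dicer cKO library (−1.98 without replicate 1, −1.83 without replicate 2) was left out, on the authors' divisor (−0.92), without a low-count filter (−1.07), with at least 10 CPM in 2 libraries, with limma (−0.72) and with only the 2 groups compared (−1.27). In Drosha cKO the change was −0.10 (SE 0.57).

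Sp556 had the opposite shape, with 2 and 15 reads in WT, 23 in each Dicer cKO library, and 27, 7 and 22 for Drosha cKO sperm. In RPM these were 0.588 and 5.41, 8.28 and 14.9, and 7.21, 17.0 and 29.2, so that each cKO library stood above both WT libraries. The log2 change was 2.87 (SE 0.84) in Drosha cKO, past the threshold, and 1.33 (SE 0.85) in Dicer cKO, not past it (1.86 and called with only the 2 groups compared); the 2 cKO groups differed by −1.54 (SE 0.77, Dicer minus Drosha), which was not called. The Drosha cKO call rested on WT replicate 1 (1.77 without it, not called) and was also lost on the authors' divisor (2.53) and without a low-count filter (2.43).

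Sp453 was found mostly in Dicer cKO sperm. It had 26 and 18 reads there (9.35 and 11.7 RPM), 2 and 0 in WT (0.588 and 0 RPM) and 1, 0 and 0 for Drosha cKO sperm. Pooled over libraries the ratio to WT was 31.4 (95% counting interval 8.20 to 268) and the ratio to Drosha cKO 49.99 (8.52 to 2019), on 2 reads and 1 read respectively. The log2 change against WT was 3.87 (SE 1.16), past the threshold and higher. Sp453 passed the low-count filter through the Dicer cKO libraries alone, which the rule also read, so that its call describes the chosen entry. It was not called when WT replicate 2 (2.00) or either Dicer cKO library (3.24 without replicate 1, 3.82 without replicate 2) was left out, or with DESeq2 (3.62). Against Drosha cKO the change was 4.58 (SE 1.28) and was not called. The part of other cell types, whose miRNAs were also higher in Dicer cKO sperm, was not tested.

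Sp105 showed the reverse. It had 9 and 15 reads in WT (2.64 and 5.41 RPM), 0 in both Dicer cKO libraries, and 12, 0 and 0 for Drosha cKO sperm. The call in Dicer cKO was lower, and taking 3 reads over the group as the floor, Sp105 was at least 5.60-fold lower than in WT on the RPM scale. With 0 reads in Dicer cKO, Sp105 passed the low-count filter through WT and Drosha cKO libraries alone. The rule chose it through WT replicate 2 and Drosha cKO replicate 1, so that its call describes the chosen entry. With 1 of the WT or Dicer cKO libraries left out, the fitted log2 change against 0 reads ran from −6.88 to −6.40. Sp105 did not pass the filter on the authors' divisor or with only the 2 groups compared. The 0 reads in Drosha cKO replicates 2 and 3 were in libraries where 3 reads equal 7.27 and 3.98 RPM, next to which the WT levels of 2.64 and 5.41 RPM would have given few reads or none. Sp65, which did not pass the filter, had 8 and 21 reads in WT, 0 and 0 for Dicer cKO and 6, 0 and 0 for Drosha cKO sperm, and was at least 6.76-fold lower in Dicer cKO than in WT. Sp162 (3 and 23, 0 and 0, then 6, 0 and 0 reads) and Sp151 (7 and 13, 0 and 0, then 2, 0 and 0 reads), looked up after their values were seen, had the same pattern. With a filter of at least 10 CPM in 2 libraries, which tested 152 members, Sp65, Sp162 and Sp151 were called lower in Dicer cKO beside Sp105, and without a filter Sp65 and Sp162 were. Having 0 reads in Dicer cKO, these entries could pass that filter only through WT and Drosha cKO libraries. Members called lower in Dicer cKO numbered 4 of 152 with that filter, beside 91 of 947 features. Without a filter they numbered 3 of 258, beside 73 of 2186 features.

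**Figure D4:**
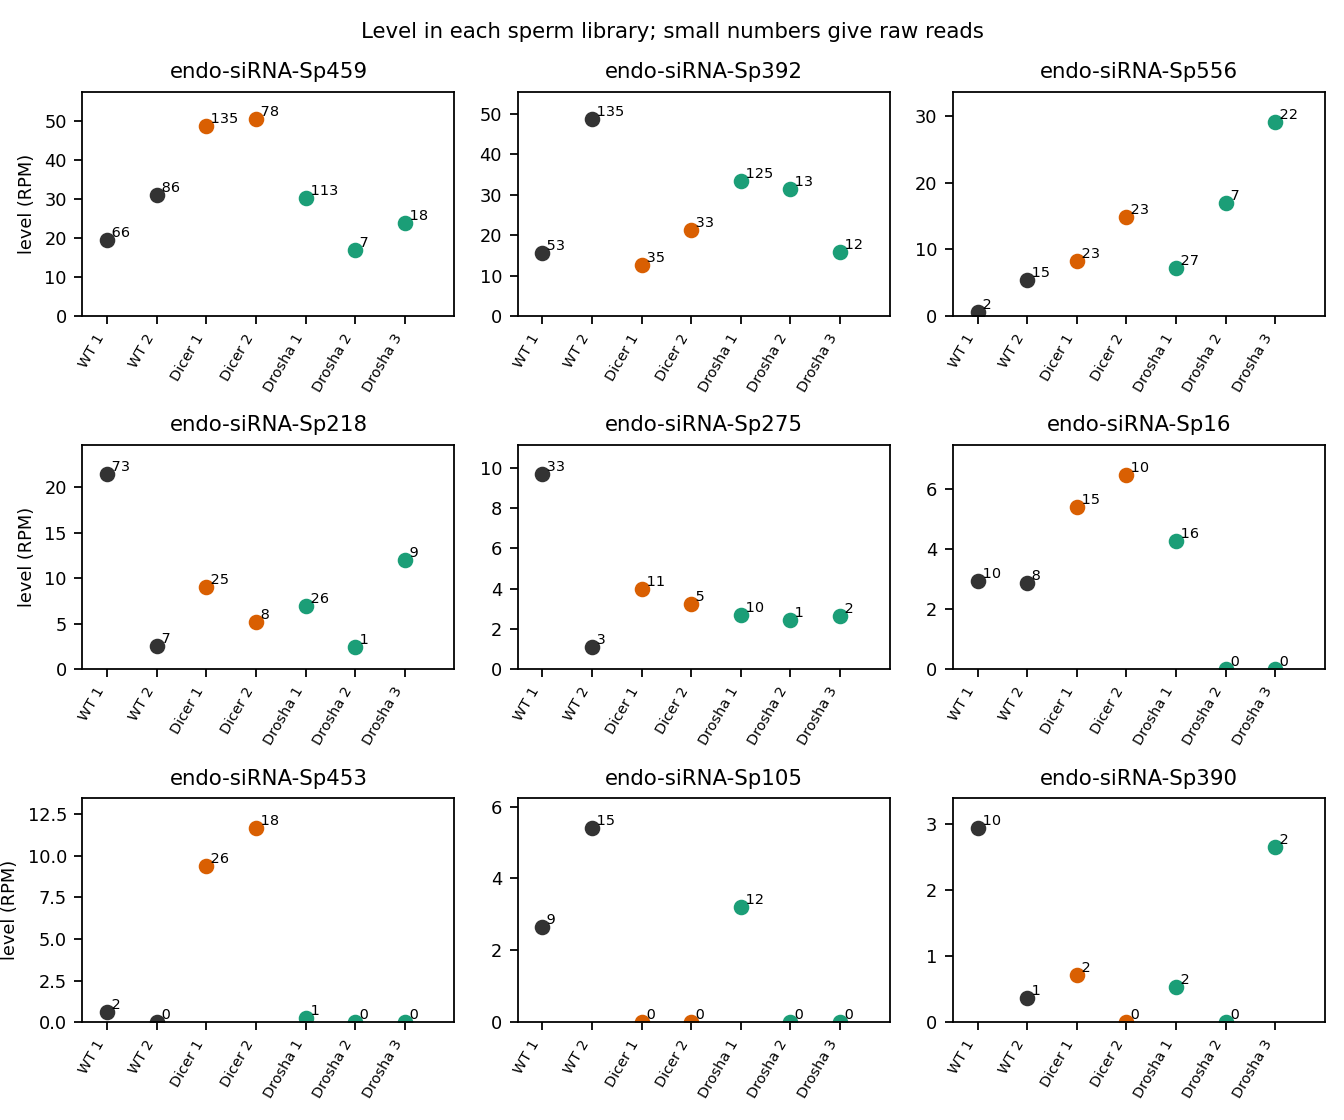
Level in RPM of the 9 endo-siRNAs that passed the low-count filter, 1 panel each, in the 7 sperm libraries (black WT, orange Dicer cKO, green Drosha cKO), with raw reads printed beside each point and axes from 0. Sp453 is high in both Dicer cKO libraries (26 and 18 reads), Sp105 has 0 reads there, and Sp218 and Sp275 are far higher in WT replicate 1 (73 and 33 reads) than in WT replicate 2 (7 and 3).

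In a further set the WT libraries disagreed with each other. Sp218 had 73 reads in WT replicate 1 and 7 in replicate 2 (21.4 and 2.52 RPM), against 8.99 and 5.19 RPM for Dicer cKO and 6.95, 2.42 and 11.9 RPM for Drosha cKO sperm. Sp275 had 33 and 3 reads in WT (9.69 and 1.08 RPM), with 2.42 to 3.96 RPM in all 5 cKO libraries. For both, every cKO library except Drosha cKO replicate 2 for Sp218 (1 read) lay between the WT values. Without WT replicate 1 the log2 change in Dicer cKO turned from −2.08 to 1.39 for Sp218 and from −1.91 to 1.54 for Sp275, and in Drosha cKO from −1.23 to 1.78 and from −1.57 to 1.49. Without WT replicate 2 both were called lower, Sp218 at −3.55 in Dicer cKO and −2.73 in Drosha cKO and Sp275 at −3.43 and −3.10. Sp390 (10 and 1 reads in WT, 2 and 0 in Dicer cKO, then 2, 0 and 2 in Drosha cKO) leaned the same way and was called lower in Dicer cKO without WT replicate 2 (−4.48). Sp458, which did not pass the filter, had 21 and 2 reads in WT, 7 and 0 in Dicer cKO, and 3, 0 and 1 in Drosha cKO. It was tested and called lower without WT replicate 2 (−3.93 in Dicer cKO, −4.07 in Drosha cKO) and, in Dicer cKO, without Dicer cKO replicate 1 (a fitted −7.18 against 0 reads). Sp354 leaned the other way, with 3 and 28 reads in WT, 0 and 2 for Dicer cKO, and 4, 0 and 0 for Drosha cKO sperm, and was called lower in both without WT replicate 1 (−4.43 and −3.38). No change in cKO sperm can be read for these entries beyond the spread of the WT pair.

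Sp16 had 10 and 8 reads in WT (2.94 and 2.88 RPM), 15 and 10 for Dicer cKO (5.40 and 6.48 RPM), and 16, 0 and 0 for Drosha cKO sperm. Its log2 change in Dicer cKO was 0.03 (SE 0.93) and turned to −0.13 with DESeq2 size factors and 1.01 on the authors' divisor. Members with a read in all 7 sperm libraries were Sp459, Sp392, Sp556, Sp218, Sp275 and Sp321. On the RPM scale, which need not hold per listed read, Sp321 was the most even of them, at 1.18 to 2.59 RPM. It had 4 and 5 reads in WT, 5 and 4 for Dicer cKO, and 8, 1 and 1 for Drosha cKO sperm. Ratios of its pooled level to WT were 1.43 (95% counting interval 0.503 to 4.06) for Dicer cKO and 1.40 (0.511 to 3.89) for Drosha cKO sperm.

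Among members with 0 reads in all 5 cKO libraries, those with most WT reads were Sp182 (2 and 10 reads), Sp564 (1 and 9), Sp226 (1 and 7) and Sp248 (1 and 5). The choice fixes that these entries are lower in cKO sperm, so no fold is given. Sp546 (1 and 5), Sp293 (2 and 4) and Sp517 (4 and 2) tied with Sp248 at 6 WT reads. Sp182, Sp564 and Sp226 had 1 or 2 reads in WT replicate 1 and the rest in WT replicate 2. Among members with 0 reads in WT replicate 2, Sp453 was followed by Sp1 (14 cKO reads), Sp6 (10) and Sp167 (9). Sp1 had 1 read in WT replicate 1, 6 and 1 for Dicer cKO and 4, 0 and 3 for Drosha cKO sperm. Sp6 had 2 reads in WT replicate 1 against 5 and 1 in Dicer cKO and 3, 0 and 1 in Drosha cKO. Sp167 had 2 reads there against 2 and 0, then 7, 0 and 0. None of Sp1, Sp6 and Sp167 had more than 7 reads in a library.

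Some miRNAs share with endo-siRNAs the need for Dicer but not for Drosha. Of 12 such miRNA arms in the table, 3 passed the filter (miR-320-3p, miR-484 and miR-1981-5p). Of these, edgeR called 0 in either cKO against WT or between the cKO groups, with 0 at an unadjusted p under 0.05, and DESeq2 and limma called 0 as well. With limma miR-320-3p had an unadjusted p under 0.05 in Dicer cKO against WT and against Drosha cKO sperm, and with DESeq2 none of the 3 had. The log2 changes in Dicer cKO were 1.76 (SE 0.84), −0.22 (SE 0.86) and 0.26 (SE 0.78), and in Drosha cKO 0.43, 0.71 and 1.20. The summed level of all 12 arms was 16.9 to 22.9 RPM in WT, 40.8 to 63.3 for Dicer cKO and 26.7 to 52.6 for Drosha cKO sperm. As a share of listed reads the order was lost, at 0.106% and 0.0169% in WT, 0.143% and 0.0583% for Dicer cKO, and 0.195%, 0.0916% and 0.170% for Drosha cKO sperm.

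Almost nothing of the set was seen in oocytes or 2PN embryos. Of the 258 members, 8 (3.10%) had a read in any of these 4 libraries, compared with 4 (0.891%) of the 449 endo-siRNAs with no read in the 6 sperm libraries. Each of these members had 1 read in a library, for which the exact 95% Poisson interval is 0.0253 to 5.57 reads. The oocyte library held Sp250, Sp39, Sp45 and Sp9, and the 2PN library from WT sperm held Sp459 and Sp392. The 2PN libraries from Dicer cKO and Drosha cKO sperm held Sp364, and Sp250 with Sp556. Sp250 was thus the only member found in 2 of the 4, and Sp459, Sp392 and Sp556, the most abundant in sperm, were each found in 1 of the 2PN libraries and not in the oocyte. These counts lie under the floor of 3 reads, which equals 2.65 RPM in the oocyte and 2.00 to 3.46 RPM in 2PN libraries, so no difference between embryos is readable at this depth. For Sp459 the floor in the oocyte is below its lowest sperm level of 17.0 RPM on the authors' divisor. Listed reads were 0.489% of that divisor in the oocyte and 2.11% to 10.1% in sperm, so this need not hold per listed read. The left-out Sp527 had 7 reads in the oocyte library.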

How the data were processed

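Counts of raw reads per feature were deposited by the authors for 11 libraries, with a second table of RPM values in which the authors divided each count by 1 number per library. That number was recovered here from the 2 tables, and no source used here says what it counts. Bowtie and mm10 are named in the submitters' processing notes; no source used here gives versions, the counting rule or where the listed endo-siRNAs were taken from. The members and lists were chosen with earlier results of these data known.

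Detection, sums and ratios were computed from the counts and the recovered divisor. Sperm groups were compared with edgeR 4.0.16 under R 4.3.3 (quasi-likelihood test, TMM, filterByExpr, all 7 sperm libraries, no block for replicate number). DESeq2 1.42.0 and limma 3.58.1 on log2(RPM + 1) served as alternatives. Counting intervals are exact 95% intervals (Poisson for single counts, binomial for ratios) and cover counting error only; reads without molecular identifiers are not independent molecules. Members were named if they passed the filter, were among the 12 with the highest mean RPM, had reads in all 7 sperm libraries, led the oocyte and 2PN reads, or had most reads with 0 in all cKO libraries or in WT replicate 2. Male germ cell, epithelial and blood lists are given in the text. The 5 stromal miRNAs summed to 0.315% to 0.795% of listed reads in WT and 1.08% to 2.61% in cKO sperm. The 5 early embryo miRNAs summed to at most 0.0504% in sperm and to 0.339% to 3.48% in oocyte and 2PN libraries, lowest in the 2PN library from Dicer cKO sperm.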

Additional observations from a re-analysis of the deposited data

How the results depend on the processing

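Depth limits detection: at least 2 reads were held by 107 and 89 members in WT, 39 and 24 for Dicer cKO, and 79, 5 and 15 for Drosha cKO sperm, by 0 in the oocyte and each 2PN library, and 53 members recurred. Thinned to the 2951 listed reads of the shallowest library, the expected numbers were 21.6 and 6.55 in WT, 7.15 and 5.12 for Dicer cKO, 13.3, 7.14 and 13.9 for Drosha cKO sperm, 2.13 in the oocyte and 0.658 in the 2PN library from Drosha cKO sperm. Thinning to the smallest sperm divisor, chosen after seeing the data, gave 54.1 and 53.0, 25.7 and 25.4, and 37.1 and 29.8 for Drosha cKO replicates 1 and 3. Group means of the sum, in the order WT, Dicer cKO and Drosha cKO, were 6060, 2945 and 6014 CPM of listed reads and, without the 4 most abundant members (an alternative also chosen after seeing the data), 161.8, 75.8 and 74.5 RPM; without Sp459 the Dicer cKO mean was 111 RPM.

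Members called in Dicer cKO against WT numbered 5 with at least 10 CPM in 2 libraries and 1 on the authors' divisor, and 1 to 6 when 1 library was left out (1 without Dicer cKO replicate 2, 6 without WT replicate 2). In Drosha cKO against WT 0 of 7 members were called on the divisor, beside 114 of 339 features. Without a low-count filter 0 of 258 were, beside 112 of 2186 features. The number also moved without WT replicate 2, which leaves 1 WT library. In Dicer cKO against Drosha cKO 1 of 152 members was called with at least 10 CPM in 2 libraries. It was 1 of 9 with limma and 1 of 7 with only the 2 groups compared, in each case Sp453. These settings tested 947, 335 and 300 features. All called features there numbered 4, 2 and 31 under these settings, 1 on the divisor, 16 with DESeq2, 1 without a filter, and 0 to 7 with 1 library left out (7 without Drosha cKO replicate 2). The causes were not tested. Of 320 alternative values for the log2 changes of the 9 tested members, 34 changed sign (20 of them with a library left out), none of them past the threshold before or after; 15 lost a call and 10 gained one.

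With replicate number as a block (replicate block), 335 features and 9 members were tested. There 8 features were called between Dicer cKO and Drosha cKO, 175 for Dicer cKO and 184 for Drosha cKO against WT. Members called were 0, 3 and 1 of the 9. Deviations of same-numbered libraries from their group means correlated at 0.181 to 0.3125 over features. In a group of 2 the deviations are mirror images, which fixes the values for replicates 1 and 2 of different groups (−0.3125 to −0.181). Correlations with Drosha cKO replicate 3 ran from −0.0793 to 0.0793. The labels do not say that a number marks a shared batch. No comparison has more than 2 pairs, so the samples were taken to share only a number.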
